A study of Mus musculus with 22 samples.

Results

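The genes described here are 10 that encode matricellular proteins, namely Tnc, Spp1, Ccn1, Ccn2, Ccn4, Thbs1, Fbln2, Ecm1, Mfap4 and Postn. They were selected by gene symbol from the 53379 genes of the count table, as a gene class and with earlier kainate results of these data known, and all 10 were among the 40714 genes tested. Their differences between kainate and sham, and the contrast of these differences between cell fractions, are therefore a description, given without a p for any of the 10 genes. The libraries come from adult male C57/BL6N mice, bought at 8 weeks of age and acclimatized for 4 weeks, of which 8 received kainate (70 nl, 20 mM) above the right hippocampus and 8 sham mice received 0.9% NaCl at the same place. Only kainate animals with convulsive seizures were kept. The left hippocampi, contralateral to the injection, were taken after 24 h and pooled into 3 samples per treatment, with 2 to 4 mice in a pool. Nuclei were isolated from each pool and sorted with an antibody against NeuN, a protein of neuronal nuclei, into a NeuN+ fraction (called neurons) and a NeuN– fraction (called glia). There were 3 mRNAseq libraries of neurons for each treatment, 3 of glia after kainate and 2 of glia after sham injection (replicates 1 and 3). Sorting by 1 protein leaves neuronal RNA in the glia libraries, and a pool hides the spread between its mice. In sorted nuclei, fewer cells of a type and less RNA per cell cannot be told apart.

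Matricellular proteins are secreted into the extracellular matrix but act mainly as signals rather than as scaffold. They bind integrins, syndecans, CD44 and other cell surface receptors as well as growth factors, and many are low in the healthy adult brain and higher after injury or in development. In brain, tenascin C, osteopontin (Spp1) and thrombospondin 1 are best known from astrocytes, microglia and other non-neuronal cells. The CCN genes Ccn1 (formerly Cyr61) and Ccn2 (formerly Ctgf) are textbook targets of the transcription factors SRF and YAP/TEAD, and Ccn4 (formerly Wisp1) of WNT signalling.

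The count table held 12058875 to 45428465 counts per library. Values are normalized CPM, counts scaled to a common library total with the TMM method, and are given in the order of the replicate numbers. The 8 neuronal markers, Rbfox3 (which encodes NeuN) among them, were all higher in sham neurons than in sham glia at FDR below 0.25, and all 8 markers each of astrocytes, microglia, oligodendrocytes and oligodendrocyte precursors were lower, so the fractions bore their labels. The glia libraries differed among themselves. Summed over 8 markers, oligodendrocyte genes reached 39851 CPM in sham glia replicate 1 and 8880 in replicate 3, and 27962, 11931 and 5021 CPM in the 3 kainate glia libraries. The astrocyte markers followed the same order, with sums of 5100 and 1373 CPM in sham and 3810, 1891 and 729 CPM in kainate glia. The neuronal markers summed to 523 to 817 CPM in the 5 glia libraries and to 3001 to 7199 CPM in the 6 neuron libraries. Markers of endothelium summed to at most 56.3 CPM, of pericytes and smooth muscle to at most 85.0 CPM, of macrophages and monocytes to at most 154 CPM, and of fibroblasts and meninges to at most 131 CPM in any library. The sum of the ependymal and choroid plexus list was higher after kainate. It was 129, 146 and 89.0 CPM in kainate and 64.2, 54.5 and 48.4 CPM in sham neurons. In glia it was 117, 75.9 and 56.5 CPM after kainate and 47.9 and 46.9 CPM in sham libraries. The sums did not overlap between the treatments in either fraction. Of the 8 markers, 4 had a fitted log2 fold change above 0 in neurons and 7 in glia. Prlr, the prolactin receptor gene, with 61.5, 62.6 and 47.4 CPM, and Kl, the klotho gene, with 47.1, 54.3 and 33.9 CPM, made up most of this sum in kainate neurons, where Foxj1, a regulator of motile cilia, stayed under 1 CPM. In glia Ttr, the transthyretin gene of the choroid plexus, had 77.9, 25.4 and 2.89 CPM in kainate and 14.1 and 2.13 CPM in sham libraries. None of the 8 genes of this list was called after kainate in either fraction. No marker of any list was at 0 in all libraries. The input was 1 ng of RNA, amplified over 10 PCR cycles, except in the second kainate glia library and the first of sham glia, with 0.05 ng and 15 cycles. The libraries ran on either of 2 sequencing platforms, with single or paired-end reads, and which of them ran on which is not given in the sources used here. What these differences add to the results below was not tested, and results are given also without the 4 libraries numbered 1.

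**Figure D1:**
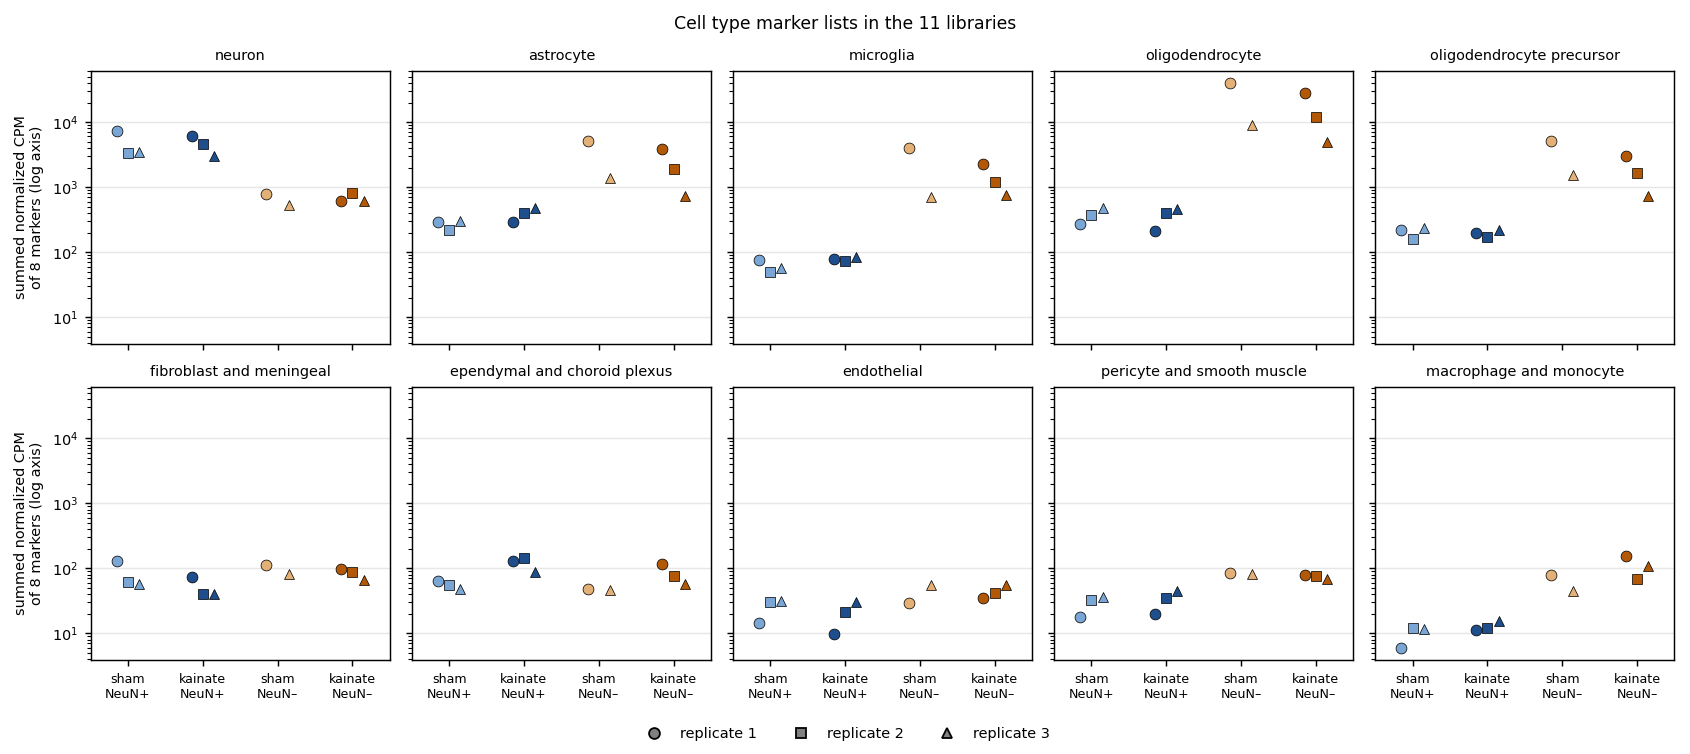
Summed normalized CPM of 8 markers (log axis) for each of 10 cell type lists in the 11 libraries, with 1 point per library, shaped by replicate number. Glial lists were high in NeuN– nuclei, where the libraries numbered 1 stood highest, with an oligodendrocyte sum of 39851 CPM in sham replicate 1 against 8880 CPM in replicate 3. The sum of the ependymal and choroid plexus list was higher after kainate in both fractions. In NeuN+ nuclei 4 of its 8 markers had a fitted log2 fold change above 0.

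On the mm10 build, Tnc lies at chr4:63959785-64047015, Spp1 at chr5:104435118-104441050, Ccn1 at chr3:145646976-145649981, Ccn2 at chr10:24595442-24598683 and Ccn4 at chr15:66891320-66923201. Thbs1 lies at chr2:118111876-118127133, Fbln2 at chr6:91212455-91272540, Ecm1 at chr3:95734147-95739569, Mfap4 at chr11:61485431-61488900 and Postn at chr3:54361109-54391037. Ccn1, Ccn4, Fbln2 and Postn share no exon bases with another annotated gene. Tnc, Ccn2 and Thbs1 overlap noncoding genes on the opposite strand by 176, 665 and 208 exon bases, of which the partner of Ccn2 had 1 to 33 counts per library, that of Tnc 9 to 136 and that of Thbs1 none. Spp1 shares 309 exon bases with Gm42793 on its own strand, which had 2 to 97 counts per library. Mfap4 overlaps the coding gene Mapk7 on the opposite strand by 89 exon bases. Mapk7 had 58.9 to 177 CPM, above Mfap4 in every library, and since the strand setting of the counting is not given in the sources used here, reads from these 89 bases cannot be assigned to either gene.

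RefSeq promoter sequences (GRCm38.p6, 250 bases before a transcript start) were at hand for 6 of the genes, with 9 starts in all. They were searched on both strands for AP-1 (TGANTCA), TEAD (GGAATG) and STAT (TTCNNNGAA) motifs, for the CArG box bound by SRF, and for the TATA box (TATAAA and, as its other form, TATATA). This last motif, where its first base lay 20 to 35 bases before the start, on the strand of the gene, was found at 4 of the 9 starts, 1 each of 4 genes, and in 2.52% of all 32851 promoters of the table. Ecm1 also held an AP-1 motif, 64 bases before its start, and Ccn1 a TEAD motif on the opposite strand, 103 bases before its start, where 6.75% and 12.6% of all promoters hold these motifs. None of the 6 held a STAT motif (7.02% of all) or a CArG box (1.47%). The stretches with these motifs, which end at the last base before the start, are shown because they are what these promoters share and where Ecm1 and Ccn1 differ from the rest, with the motifs in capitals and each written 5′ to 3′ on the strand of the gene. A match describes the letters only.
Ccn1, chr3:145649986-145650100, minus strand: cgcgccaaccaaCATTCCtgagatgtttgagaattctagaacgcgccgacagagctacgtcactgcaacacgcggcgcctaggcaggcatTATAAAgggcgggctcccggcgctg
Ecm1, chr3:95739570-95739645, minus strand: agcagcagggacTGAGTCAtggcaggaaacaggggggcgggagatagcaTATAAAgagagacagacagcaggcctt
Tnc, chr4:64046937-64046977, minus strand: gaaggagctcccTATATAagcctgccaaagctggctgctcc
Postn, chr3:54361067-54361106, plus strand: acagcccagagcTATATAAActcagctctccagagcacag

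In sham mice, 4 of the 10 genes differed between the fractions. Tnc, Spp1 and Ccn1 were lower in sham neurons than in sham glia, Fbln2 was higher, and the other 6 did not pass the test. This comparison of the fractions within sham mice asks where each gene was expressed without seizures and uses no difference between treatments. The same sham libraries entered the kainate results known when the genes were chosen, so its FDRs are not free of that choice. Of the 10 genes, 3 were lower and 1 higher at FDR below 0.25 (edgeR's quasi-likelihood test, Benjamini-Hochberg over all genes), where 7.63% of all genes tested were lower and 9.11% higher. Neurons and glia with the same number were taken to come from the same pool of mice. With the pool as a block 3 genes were higher and 3 lower, where 18.3% and 15.7% of all genes were.

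Tnc, the gene of tenascin C, had 4.77, 6.86 and 7.70 CPM in sham neurons and 22.9 and 28.8 CPM in sham glia. Its log2 fold change, NeuN+ over NeuN–, was -2.00 (standard error 0.38, FDR = 0.00462). Spp1, which encodes the integrin and CD44 ligand osteopontin, had 0.537, 1.98 and 1.48 CPM in sham neurons against 16.7 and 5.36 CPM in sham glia. The difference was -3.01 on the log2 scale (standard error 0.59, FDR = 0.00532), and the lowest of these values rests on 8 counts. Ccn1 had 3.36, 2.58 and 1.84 CPM in sham neurons and 35.02 and 8.97 CPM in sham glia, a log2 difference of -3.09 (standard error 0.59, FDR = 0.00437). None of the neuron libraries of these 3 genes reached the lowest glia library. The 3 calls were kept under each of the 22 other settings, with log2 differences of -2.33 to -1.82 for Tnc, -3.60 to -1.46 for Spp1 and -3.77 to -1.76 for Ccn1. For Spp1 and Ccn1 the glia library numbered 1, richest in glial markers, was also the higher of the pair, and without the libraries numbered 1 their differences were -1.46 and -1.85.

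Fbln2, the gene of fibulin 2, a protein of basement membranes and elastic fibres, had 28.9, 38.1 and 33.9 CPM in sham neurons and 16.1 and 17.0 CPM in sham glia, with no overlap. Its log2 difference of 1.02 (standard error 0.45, FDR = 0.241) passed narrowly. The call ended when any 1 of 8 libraries was omitted, namely sham neurons replicate 1, 2 or 3 (1.12, 0.93 and 1.02), replicate 3 of kainate neurons (1.02), replicate 2 or 3 of kainate glia (1.02 and 0.74) and either library of sham glia (1.03 and 1.06), and also with DESeq2's size factors (0.95), no filter on low counts (1.06), the sham libraries alone (0.71), low RNA input as a covariate (1.08) and without both libraries of low RNA input (1.03). With the pool as a block its FDR was 0.0385. Mfap4, whose protein binds elastin and collagen in microfibrils, had 10.7, 5.37 and 7.74 CPM in sham neurons and 6.45 and 2.68 CPM in sham glia. Its log2 difference of 0.80 (standard error 0.46, FDR = 0.438) was called only with the pool block (1.12, FDR = 0.0435), without the libraries numbered 1 (1.45), without sham glia replicate 1 (1.60) and without both libraries of low RNA input (1.60). Ccn2, the gene of connective tissue growth factor, varied widely between the sham neuron libraries. It had 33.3, 6.80 and 3.00 CPM in sham neurons and 6.07 and 2.68 CPM in sham glia (log2 difference 1.71, standard error 0.93, FDR = 0.396, and 1.37 with the pool block, FDR = 0.142). It was called without sham neurons replicate 3 (2.19) or sham glia replicate 1 (2.45), and was 0.17 without sham neurons replicate 1. Ecm1, Ccn4, Thbs1 and Postn had log2 differences of 0.47, -0.15, -0.65 and -0.02, with FDRs of 0.685 to 0.991 and overlapping libraries. Ecm1 (1.12) and Thbs1 (-1.29) were called once sham glia replicate 1 was omitted, and Postn (1.29) once replicate 3 was. In either direction, 29.1% of all genes were called under the first of these omissions, 24.4% under the second and 42.8% without the libraries numbered 1.

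**Figure D2:**
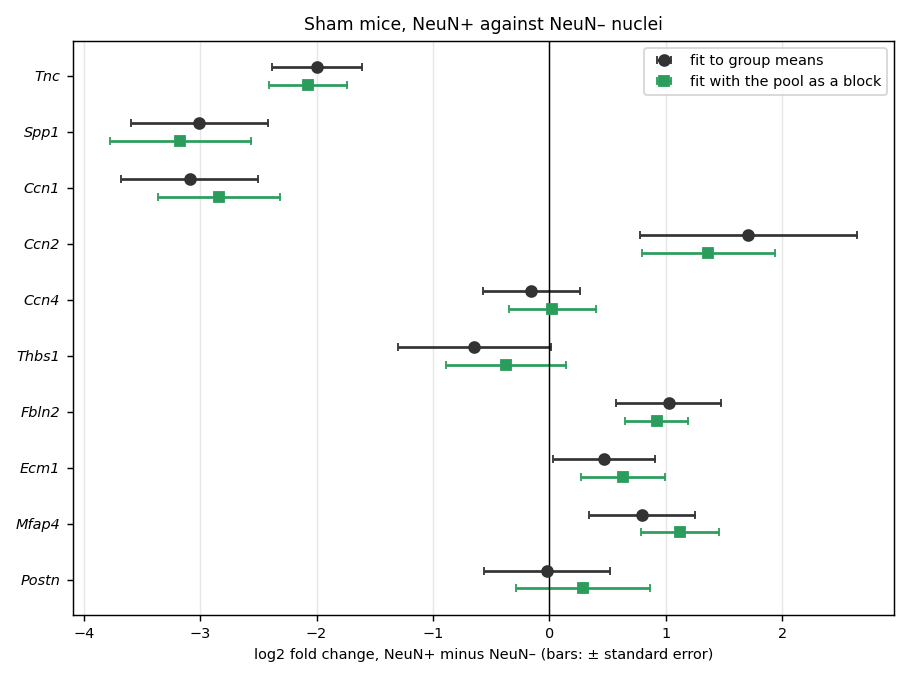
Log2 fold change of each gene between NeuN+ and NeuN– nuclei of sham mice (3 against 2 libraries), with bars of ± 1 standard error, from the fit to group means (circles) and from the fit with the pool as a block (squares). Tnc, Spp1 and Ccn1 lie at -2.00, -3.01 and -3.09, and Fbln2, Ccn2 and Mfap4 lie above 0.

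Levels of different genes were compared per kilobase of merged exons. In sham neurons, Fbln2 (5.28 ± 0.72 CPM per kb, SD, n = 3), Ccn2 (5.02 ± 5.77), Ecm1 (4.42 ± 0.39) and Mfap4 (4.12 ± 1.38) were the most abundant, and the other 6 lay between 0.470 (Ccn4) and 1.28 CPM per kb (Ccn1). The mean of Ccn2 rested on replicate 1 and was 1.71 ± 0.94 CPM per kb (SD, n = 2) without it, under the means of the other 3. In sham glia, Ccn1 (10.9 ± 9.12 CPM per kb, SD, n = 2) and Spp1 (6.70 ± 4.89) led with a wide spread, followed by Tnc (3.32 ± 0.54), and Ccn4 was again the lowest (0.522 ± 0.169). The leading genes of a fraction thus had overlapping spreads. After kainate, Fbln2 (19.8 ± 9.40), Ccn2 (15.6 ± 10.2) and Mfap4 (14.6 ± 3.47) led in neurons, and Ccn1 (49.7 ± 26.3), Spp1 (28.9 ± 14.7), Ecm1 (14.4 ± 5.88) and Tnc (11.1 ± 2.10 CPM per kb) in glia (SD, n = 3).

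Kainate neurons were then compared with sham neurons, to see which matricellular genes differed in the neuronal fraction 24 h after the injection. All 10 fitted log2 fold changes were above 0, with a median of 1.87 beside -0.02 over all genes tested. At FDR below 0.25, 3 of the genes were called (Tnc, Ccn4 and Fbln2), each higher after kainate, where 0.157% of all genes were. The lowest kainate library exceeded the highest sham library for 9 of the genes, all but Ccn2, which held for 4.26% of all genes. Kainate and sham pools hold different mice, and nothing in the sources used here pairs their numbers. With the number as a block, 8 of the genes were called, all but Ecm1 and Postn, against 3.19% of all genes. These genes were chosen with this comparison in view, so the counts are given beside those shares and nothing is read from them.

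Ccn4, a CCN protein of WNT signalling, showed the largest fitted difference in neurons. It had 15.4, 16.7 and 12.4 CPM in kainate and 2.75, 2.04 and 3.06 CPM in sham neurons, with a fitted difference of 2.50 on the log2 scale (standard error 0.39). Tnc had 26.2, 21.9 and 41.3 CPM in kainate neurons (2.20, standard error 0.36), close to the 22.9 and 28.8 CPM of sham glia. Fbln2 reached 64.4, 184 and 129 CPM in kainate neurons, 1.90 above sham on the log2 scale (standard error 0.40). Leaving out sham neurons replicate 2 or 3 ended the calls of all 3 genes, and the calls of Ccn4 and Fbln2 also ended without kainate neurons replicate 2, those of Tnc and Fbln2 without kainate neurons replicate 3, and that of Fbln2 without sham neurons replicate 1 or kainate glia replicate 2. The call of Fbln2 ended, too, with no filter on low counts (1.85) and with low RNA input as a covariate (1.90). With each of the 11 libraries omitted in turn, the log2 fold changes ranged from 2.35 to 2.64 for Ccn4, 1.89 to 2.39 for Tnc and 1.53 to 2.22 for Fbln2.

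Ccn1 had 11.2, 11.5 and 17.4 CPM in kainate neurons (2.38 above sham on the log2 scale, standard error 0.55), and Spp1 had 8.11, 5.40 and 6.12 CPM (2.25, standard error 0.55). Tnc, Spp1 and Ccn1 are the 3 genes that were lower in sham neurons than in sham glia, and markers of glia were also present in these libraries. The astrocyte markers summed to 293, 398 and 476 CPM in kainate and 290, 217 and 298 CPM in sham neurons. Of these 8 markers, 5 had a fitted log2 fold change above 0, and none was called. Gfap, for example, had 39.9, 71.5 and 126 CPM in kainate and 24.0, 18.1 and 21.3 CPM in sham neurons, whereas Slc1a3 had 14.3, 20.1 and 45.4 CPM in kainate and 31.6, 26.5 and 61.6 CPM in sham neurons. The microglia markers summed to 72.7 to 83.0 and 49.1 to 75.2 CPM, and the oligodendrocyte markers to 214 to 459 and 267 to 481 CPM, so both sums overlapped between the treatments. Within each number the astrocyte and microglia sums were higher in the kainate library, and the oligodendrocyte sum was so only in number 2. The part of RNA from glia in the values of these 3 genes was not tested.

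Mfap4 had 24.0, 35.8 and 24.6 CPM in kainate neurons, all above sham (1.83, standard error 0.41). Thbs1, which activates latent TGF-beta and promotes the formation of synapses, had 21.5, 5.28 and 7.07 CPM in kainate and 3.09, 3.30 and 3.51 CPM in sham neurons. Its log2 fold change of 1.76 (standard error 0.61) rested on kainate replicate 1 and was 0.90 without it. Ccn2 had 69.7, 51.6 and 12.8 CPM in kainate neurons, and the groups overlapped because sham replicate 1 (33.3 CPM) lay above kainate replicate 3. Its log2 fold change was 1.65 (standard error 0.79), 3.19 without sham neurons replicate 1 and 1.16 without sham neurons replicate 3. Within each number, Ccn2 was 2.09, 7.58 and 4.27 times as high in the kainate library. Ecm1, the gene of a secreted glycoprotein of the matrix, had 16.01, 14.5 and 13.3 CPM in kainate and 11.6, 10.0 and 11.8 CPM in sham neurons. The groups did not overlap, but the log2 fold change was only 0.39 (standard error 0.38). Postn, which encodes the integrin ligand periostin, had 8.04, 7.98 and 7.84 CPM in kainate and 6.58, 5.02 and 4.87 CPM in sham neurons (0.54, standard error 0.49).

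**Figure D3:**
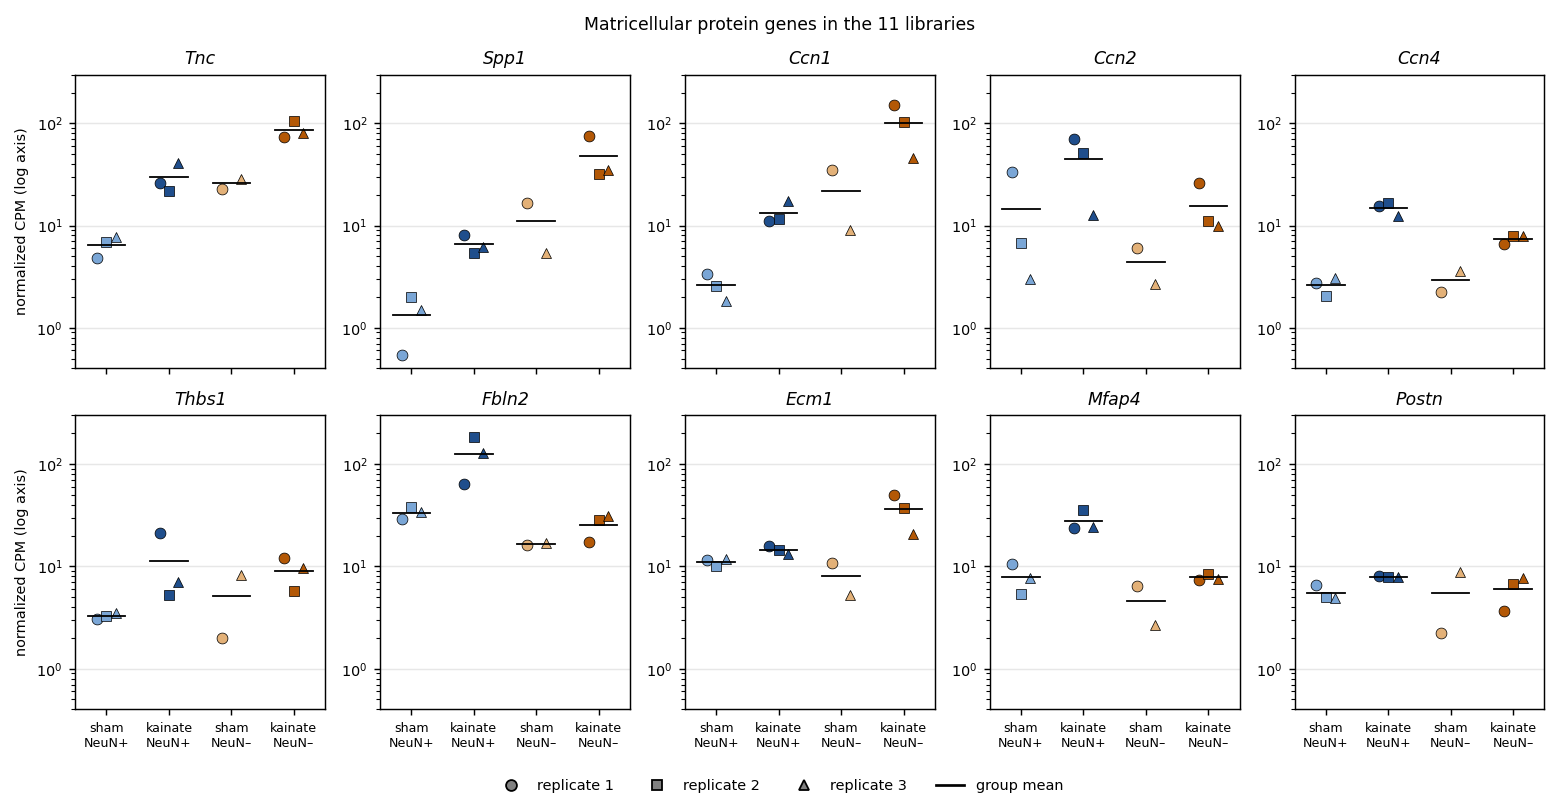
Normalized CPM (log axis) of the 10 genes in the 11 libraries, with 1 point per library, shaped by replicate number, and a bar at each group mean. Ccn4, Fbln2 and Mfap4 are highest in kainate NeuN+ nuclei, and Tnc, Spp1, Ccn1 and Ecm1 in kainate NeuN– nuclei, where Ccn1 reached 152 CPM in replicate 1.

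In glia, the fitted log2 fold changes between kainate and sham were again all above 0, with a median of 1.55 beside 0.02 over all genes tested. No gene of the 10 was called at FDR below 0.25 in edgeR's quasi-likelihood test, where 0.101% of all genes were called in either direction. At that FDR the study, which analysed the fractions separately and over fewer genes, lists Tnc and Ecm1 as higher in glia. At an unadjusted p below 0.05, 5 of the 10 were higher (1.35% of all genes), and DESeq2's Wald test called 5, namely Tnc, Spp1, Ccn1, Ccn4 and Ecm1 (1.07% of the genes to which it gave an adjusted p). Every kainate library lay above both sham libraries for 8 of the genes, all but Thbs1 and Postn, which held for 4.7% of all genes. With the replicate number as a block, which rests on 2 pairs in glia, 7 were called (Tnc, Spp1, Ccn1, Ccn2, Ccn4, Thbs1 and Ecm1), each higher after kainate, where 2.93% of all genes were. Without the libraries numbered 1, a choice made after seeing the data that leaves 1 sham glia library, 6 were called (Tnc, Spp1, Ccn1, Ccn2, Ecm1 and Mfap4), each higher after kainate, where 0.954% of all genes were. Without kainate glia replicate 3, Ecm1 was called (log2 fold change 2.34), as were 0.11% of all genes, and without sham glia replicate 3, Tnc (1.90), Ccn4 (1.72) and Ecm1 (1.73) were, as were 6.59% of all genes.

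Tnc had 73.2, 105 and 80.9 CPM in kainate glia, all above both sham libraries (1.74, standard error 0.41). Spp1 had 75.5, 32.3 and 35.01 CPM (2.11, standard error 0.62), and Ccn1 had 152, 103 and 45.9 CPM (2.19, standard error 0.62). Both depended on the sham library, with 3.18 for Spp1 and 3.51 for Ccn1 when sham replicate 1 was omitted and 1.498 and 1.512 when sham replicate 3 was. The kainate glia library numbered 3, lowest in Ccn1, also had the lowest sum of astrocyte markers. Within each number Ccn1 was 4.34 and 5.11 times as high in kainate as in sham glia. The astrocyte sum was lower in the kainate library of both numbers, whereas 1 of its markers, Gfap, had 857, 608 and 278 CPM in kainate and 232 and 87.9 CPM in sham glia. What cell make-up adds to these values was not tested. Ecm1 had 50.5, 37.3 and 20.9 CPM in kainate and 10.9 and 5.26 CPM in sham glia. The fitted log2 difference was 2.17 (standard error 0.47), the largest ratio of difference to error among the 10 genes in this fraction. Ccn4 had 6.58, 7.87 and 7.84 CPM against 2.24 and 3.57 CPM in sham glia (1.35, standard error 0.43). Ccn2 had 26.1, 10.96 and 10.0 CPM in kainate and 6.07 and 2.68 CPM in sham glia (1.84, standard error 0.94), a difference of 1.14 without kainate glia replicate 1 and 2.57 without the first sham library.

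Fbln2, Mfap4, Thbs1 and Postn had the smallest fitted differences in glia. Fbln2 had 17.2, 28.5 and 30.9 CPM in kainate glia and Mfap4 had 7.40, 8.45 and 7.59 CPM, with log2 fold changes of 0.63 (standard error 0.45) and 0.78 (standard error 0.46). That of Mfap4 was 1.57 when sham replicate 1 was omitted, 1.59 without the libraries numbered 1 and 0.27 when sham replicate 3 was omitted. Thbs1 had 11.98, 5.77 and 9.58 CPM in kainate and 1.98 and 8.33 CPM in sham glia (0.81, standard error 0.67), and its fold change was 2.19 when the higher sham library, replicate 3, was omitted and 0.15 when replicate 1 was. Postn had 3.64, 6.79 and 7.64 CPM in kainate and 2.24 and 8.83 CPM in sham glia, so that the groups overlapped (0.12, standard error 0.54). Omitting sham replicate 1 gave -0.52 for Postn, and omitting sham replicate 3 gave 1.42. Without the libraries numbered 1, the log2 fold changes were -0.10 for Thbs1 and -0.28 for Postn.

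**Figure D4:**
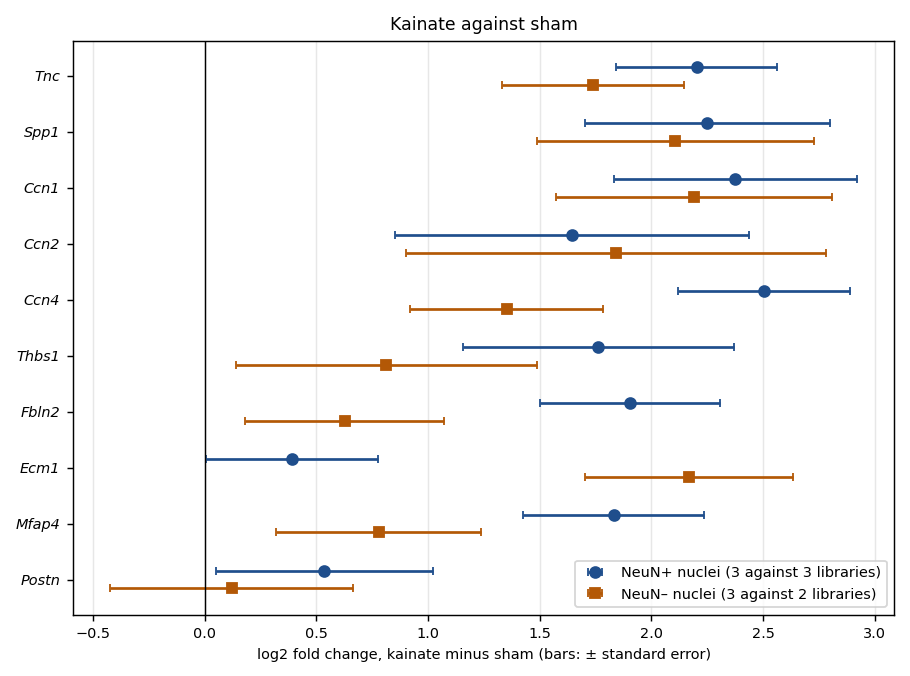
Log2 fold change between kainate and sham in NeuN+ nuclei (circles, 3 against 3 libraries) and in NeuN– nuclei (squares, 3 against 2 libraries), with bars of ± 1 standard error. Ecm1 lies at 0.39 in NeuN+ and at 2.17 in NeuN– nuclei, and Fbln2 at 1.90 and 0.63.

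The interaction term of the fit gives the difference of the kainate effect between the fractions. It is built from the same kainate and sham values that were known when the genes were chosen, so its counts are a description too. None of the 10 was called at FDR below 0.25 in edgeR's quasi-likelihood test or in DESeq2's Wald test, where 0.00246% of all genes were called in edgeR. At an unadjusted p below 0.05, 2 of the 10 differed (0.909% of all genes). Ecm1 had a smaller effect in neurons by 1.78 on the log2 scale (difference -1.78, standard error 0.59), and Fbln2 a larger one (difference 1.28, standard error 0.58). Both were called with the replicate number as a block (-1.72 and 1.30), where 1.94% of all genes were, and Ecm1 without the libraries numbered 1 (-2.21), where 0.151% were. For Tnc, Spp1, Ccn1 and Ccn2 the differences were 0.46, 0.14, 0.19 and -0.20, with standard errors of at least 0.51, so differences of this size were within the error.

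Matched by number, the kainate library was above the sham library in 49 of the 50 comparisons over the 10 genes, 3 pairs of neurons and 2 of glia. The exception was Postn in glia, number 3. For 9 of the genes all 5 ratios were above 1, as they were for 7.16% of all genes. The ratios ranged from 2.81 to 5.49 for Tnc, 2.20 to 8.20 for Ccn4 and 3.33 to 9.49 for Ccn1, whereas those of Fbln2, Ecm1, Mfap4 and Thbs1 reached down to between 1.07 and 1.15. Those of Spp1 ran from 2.73 to 15.1, the highest ratio of the 50, which is over the sham value of 8 counts.

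**Figure D5:**
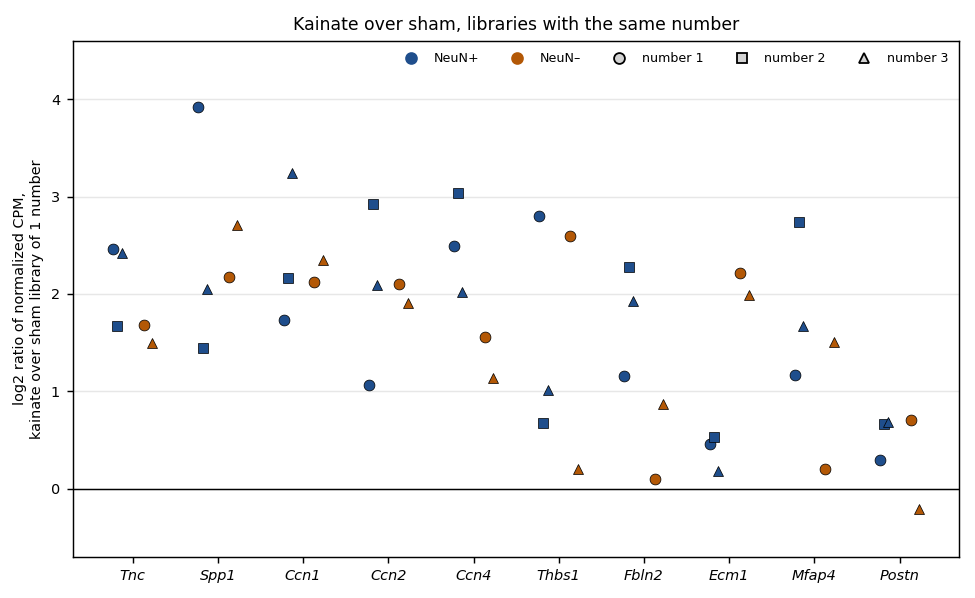
Log2 ratio of normalized CPM between the kainate and the sham library of the same number, for each gene in NeuN+ (3 pairs) and NeuN– nuclei (2 pairs). All ratios lie above 0 but that of Postn in NeuN– nuclei, number 3, with 5 points per gene.

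Ordered by group mean, the 4 groups followed several patterns. For Tnc the order was kainate glia, kainate neurons, sham glia and sham neurons, and for Spp1 and Ccn1 kainate glia, sham glia, kainate neurons and sham neurons. In all 3 the libraries of kainate neurons and sham glia overlapped, and the other neighbours did not. Fbln2 and Mfap4 ran from kainate neurons over sham neurons and kainate glia to sham glia, with an overlap of sham neurons and kainate glia alone. Ccn4 was highest in kainate neurons, then in kainate glia, with both sham groups overlapping below. Ecm1 was highest in kainate glia, then in kainate neurons, and its sham groups overlapped. For Ccn2 and Thbs1 all neighbouring groups overlapped, and for Postn only kainate neurons stood apart from kainate glia, the next group. Sham glia replicate 3 (8.83 CPM of Postn) still lay above every library of kainate neurons. Over the 11 libraries, which come from 4 groups and differ in depth and in cell make-up, the genes most like Tnc in log2 CPM were Pawr, Mapkapk3 and Gm37352 (Pearson r = 0.968, 0.967 and 0.967), and those most like Ccn1 were Bach1, Gfap and Traf2 (0.990, 0.980 and 0.980). Those most like Ccn4 were Gal, Sik1 and Medag (0.960, 0.952 and 0.948), and those most like Mfap4 were Slc27a3, Smad3 and Arc (0.966, 0.962 and 0.957).

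The rest of the pathway was described by 3 lists, also written with earlier results known, so that their kainate counts are a description. Of 37 other matricellular genes, such as the remaining thrombospondins, tenascins, fibulins, SPARC and CCN genes, 1 was called higher in kainate neurons (0.157% of all genes) and none lower, with a median log2 fold change of 0.19 beside -0.02 over all genes. The called gene was Angptl4, which encodes an inhibitor of lipoprotein lipase that also binds the matrix. It had 7.19, 10.3 and 16.2 CPM in kainate and 1.81, 2.01 and 2.19 CPM in sham neurons (2.48, standard error 0.48). In glia none of the 37 was called by edgeR, 2 were higher at an unadjusted p below 0.05 (1.35% of all genes) and 2 by DESeq2 (1.07% of the genes it gave an adjusted p), and the median was -0.11 beside 0.02. With the replicate block, 12 of the 37 were higher and 6 lower in neurons, where 3.19% of all genes were higher and 1.9% lower.

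Of 25 receptors of matricellular proteins, 1 was called higher in neurons (0.157% of all genes) and 2 in glia (0.101% of all genes in either direction), and none lower. Sdc1, a syndecan, had 45.3, 48.4 and 38.7 CPM in kainate and 0.671, 2.21 and 2.55 CPM in sham neurons. Cd44, the receptor of hyaluronan and osteopontin, had 167, 146 and 59.6 CPM in kainate and 6.84 and 12.05 CPM in sham glia (log2 fold change 3.72, standard error 0.58). Itga5, the integrin subunit of the fibronectin receptor, had 92.9, 110 and 69.7 CPM in kainate and 6.97 and 11.1 CPM in sham glia (3.33, standard error 0.53). In none of these 3 genes did the treatments overlap. The list as a whole had medians of 0.06 in neurons and -0.16 in glia, beside -0.02 and 0.02 over all genes, and with the replicate block 7 receptors were higher and 3 lower in neurons (3.19% and 1.9% of all genes). In sham mice, 13 of the 25 receptors were lower in neurons than in glia and 4 higher, where 7.63% of all genes were lower and 9.11% higher.

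Of 27 genes of YAP, TEAD, SRF and TGF-beta signalling, none was called by edgeR after kainate in either fraction. In neurons 7 were higher and 1 lower at an unadjusted p below 0.05 (1.46% and 0.626% of all genes), and DESeq2 called 4 higher (1.34% of the genes it gave an adjusted p). In glia 3 were higher and 1 lower at that p (1.35% and 0.695% of all genes), and DESeq2 called 2 higher (1.07% likewise). The medians were 0.32 in neurons and 0.14 in glia beside -0.02 and 0.02 over all genes. With the replicate block, 10 were higher and 2 lower in neurons, again beside 3.19% and 1.9% of all genes.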

How the data were processed

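Nuclei of 11 sorted samples were measured by mRNAseq. The authors trimmed the reads (Trim Galore 0.4.3, per the submitters' processing notes), mapped them to mm10 with Rsubread, and assigned reads with a unique position to GENCODE M16 genes in featureCounts. The deposited values are these raw counts, of 53379 genes. The labels' protocol speaks of right hippocampi, whereas titles and paper give the left side, used here. Bisulfite values were not used here. The 10 genes and the lists of related genes and markers were chosen with earlier results of these data known.

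Rows with no symbol (105) were dropped. The filterByExpr function of edgeR, with a minimum count of 10 and a minimum total of 15, kept 40714 genes. Counts were TMM-scaled, and edgeR's quasi-likelihood model (legacy fit) was fitted to the 4 group means of all 11 libraries, with 7 residual degrees of freedom and a biological coefficient of variation of 0.600. P-values were adjusted over all genes tested by the Benjamini-Hochberg method, with calls at FDR below 0.25, the study's threshold. The study analysed neurons and glia separately and over fewer genes. Its main lists hold Tnc, Ccn1, Ccn4 and Mfap4 as higher in neurons, without Fbln2, and Tnc and Ecm1 as higher in glia. Fits were tested on simulated counts, which had less spread than the data and no effect shared within a number, so the test does not cover these. Computation used DESeq2 1.42.0, edgeR 4.0.16 and limma 3.58.1 in R 4.3.3. Exon lengths and coordinates are from GENCODE on mm10.

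Named were all 10 genes, genes of the related lists called after kainate, the 3 genes most correlated with each of 4 members, and markers where a list is described. Deviations from group means correlated at 0.643, 0.161 and 0.491 between neuron libraries with the same number. Each was over 0.1, so the number was used as a block. Libraries of unlike number were not compared, so these values do not show that the numbers pair the libraries. Sham neurons and glia of 1 number were taken to come from 1 pool of mice. Their correlations (0.668 and 0.547) both rest on the same difference between the 2 sham glia libraries and do not show this. Counting error falls with depth: the 10 genes had 8 to 7217 counts per library. Other settings were DESeq2's size factors and Wald test, other filters, genes with an Entrez ID, separate fits, edgeR's newer method, FDR below 0.05, omission of libraries, blocks and low RNA input as a covariate.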

Additional observations from a re-analysis of the deposited data

How the results depend on the processing

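Over 22 other settings, the 10 log2 fold changes between kainate and sham stayed above 0 in all 220 fits in neurons and in 215 of 220 in glia, where Postn and Thbs1 made up the rest. The number of the 10 genes called was less stable. In neurons, with 3 called, it was 6 with DESeq2's Wald test, 6 under a filter of CPM 1 or more in 3 libraries, 6 with genes with an Entrez Gene ID, 6 with a separate fit per fraction, 6 without both libraries of low RNA input, 7 without the libraries numbered 1, 2 with no filter on low counts or with low RNA input as a covariate (both without Fbln2) and 0 at FDR below 0.05. Omission of a single library gave 0 to 6, with 0 without sham neurons replicate 2 or 3. In glia, with 0 called, it was 5 with DESeq2's Wald test, 1 under that filter, 1 with genes with an Entrez Gene ID, 1 with edgeR's newer method, 6 without the libraries numbered 1 and 0 to 3 with 1 library left out. For the sham fractions, with 4 called, it was 8 without the libraries numbered 1 (42.8% of all genes) and 3 to 7 with 1 library left out. It was 3, without Fbln2, with DESeq2's size factors, no filter on low counts, the sham libraries alone, low RNA input as a covariate or FDR below 0.05. Postn, at -0.02, ranged from -0.65 to 1.29 over the omissions of 1 library and was called at 1.29, without sham glia replicate 3. For the interaction, with 0 called, it was 1 without the libraries numbered 1 and 0 in each omission of 1 library. The share of all genes called moved as well, over these settings and the blocks from 0.0123% to 5.09% in neurons, from 0% to 6.59% in glia, from 11.2% to 42.8% in the sham fractions and from 0% to 1.94% in the interaction. The cause of these changes was not tested. With either sham glia library omitted, the remaining 1 is assumed to vary as the other groups do. The omission of the libraries numbered 1 was chosen after the data were seen.

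With the replicate number as a block, 8 of the 10 genes were called in neurons, 7 in glia (Tnc, Spp1, Ccn1, Ccn2, Ccn4, Thbs1 and Ecm1), each higher after kainate, and 2 in the interaction (Ecm1 and Fbln2). In glia it called 6 higher and 3 lower of the 37 other matricellular genes, 4 and 4 of the 25 receptors and 4 and 1 of the 27 signalling genes, beside 2.93% and 2.86% of all genes. The pool block called 6 in the sham fractions. Glia have only 2 pairs, with correlations of 0.760 and 0.787, and kainate glia replicate 2 drops out of the comparison. Both correlations rest on the same difference between the 2 sham glia libraries, so they are not independent. The number of pools, and 2 sham glia libraries, limit the precision.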
